A study of Mus musculus with 11 samples.

Results

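The 10 genes described here bring cholesterol into adrenal cells, release it from lysosomes, and store it as esters or free it from them, and they were followed in fetal mouse adrenocortical cells with and without Star. The Star protein moves cholesterol to the inner mitochondrial membrane, where steroid synthesis begins. The genes are Scarb1, Vldlr, Lrp1 and Lrp8 (receptors), Lipa and Npc1 (lysosomal release), Scp2 (intracellular transfer), Soat1 (ester formation), Lipe (ester hydrolysis) and Lipc (a secreted lipase). Every array probe whose RefSeq accession belonged to one of them was taken, which gave 15 probes for the 10 genes, out of 41174 probes and 17016 named genes on the array. Of the 10 genes, 7 had 1 probe and 3 had several.

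The arrays held RNA of 4 Star-/- mice, all labelled male, and of 7 Star+/+ mice, 3 labelled male and 4 female, all taken at E17.5 or E18.5, days of embryonic life shortly before birth. Adrenal cells were dispersed and those positive for eGFP were sorted by flow cytometry. The sources used here name neither the promoter of the reporter nor the day of each embryo. Age could therefore not be set beside genotype, and its part in any difference was not tested. The RNA of each mouse was linearly amplified, labelled with Cy3 and put on its own single-colour Agilent array. The arrays lay on 3 slides: knockout arrays 1 and 2 shared slide 1 with wild-type arrays 1 and 2, knockout arrays 3 and 4 shared slide 2 with wild-type array 3, and wild-type arrays 4 to 7 filled slide 3. Genotypes could be compared within slides 1 and 2 alone, and slide 3 added to the estimate of the spread.

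In the mouse adrenal, cholesterol for steroids arrives mainly as cholesteryl ester of high-density lipoprotein, taken up selectively by the scavenger receptor SR-BI, and also by endocytosis of whole lipoproteins through other receptors. Endocytosed esters are split in lysosomes by acid lipase, and the free cholesterol leaves through the NPC proteins. Surplus cholesterol is esterified in the endoplasmic reticulum and kept in lipid droplets, from which hormone-sensitive lipase frees it when corticotropin stimulates the gland. Cells that lack Star are known to fill with such droplets.

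Levels below are log2 signals relative to the 75th percentile of the same array, so a level belongs to its own probe and is never set against another probe. Wild-type array 3 was the dimmest, with a 75th percentile of 114.6 signal units against 165.8 to 705.5 on the other arrays and the lowest median correlation with the others, 0.877. It is the single wild-type array of slide 2, so without it the genotypes meet on slide 1 alone, and a difference given for slide 1 is also the difference without it. Wild-type array 3 is labelled female, with a low Ddx3y level of −5.27, and both knockout arrays of slide 2 are labelled male, so genotype and sex cannot be told apart on slide 2. Wild-type array 4 is labelled female, but its Y-linked Ddx3y level of 2.70 lay among the arrays labelled male (2.26 to 3.32), not with the other arrays labelled female (−6.74 to −5.27). In the fit with genotype and slide, array 4 adds to the spread and not to the differences. With sex as a term, without the slide term or with slide as a random block it bears on the differences too. With sex as a term Scarb1 differed by −0.87 and Lrp1 by 1.65. With array 4 also left out they differed by −1.14 and 1.73. Precision is limited by how few arrays there are. The bright probe of Star averaged 2.37 ± 0.73 in knockout arrays (SD, n = 4) and 5.75 ± 1.82 in wild-type arrays (SD, n = 7), and its fitted difference was −4.70 ± 0.93 (SE, adjusted p = 0.0565, limma). A dimmer Star probe, fitted among separate probes, differed by −5.38 ± 0.91 (SE, adjusted p = 0.0367, limma). Where these probes lie relative to the deleted part of the gene is not known here, so they check the labels in a limited way.

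None of the genes passed the test between genotypes: 0 of the 9 tested had an adjusted p under 0.05 in limma, against 0.829% of the 21107 genes and unnamed probes tested (175), while 2 of the 9 had an unadjusted p under 0.05, against 18.4% of all. Lrp1 and Lipa were those 2, both higher in knockout arrays. In the fit, 4 of the 9 were higher and 5 lower in knockout arrays, with a median difference of −0.26, beside −0.16 over all genes tested (quartiles −0.69 and 0.53). The difference had the same sign within slide 1 and within slide 2 for 7 of the 9, all but Scarb1 and Scp2. It was small for Soat1 on slide 1 (−0.07) and for Npc1 on slide 2 (0.26). The share over all genes tested was not taken, so this count is not read as a result. With limma array weights, where wild-type array 3 had a weight of 0.15 and knockout array 1 one of 5.8, 3 of the 9 passed (Lrp1, Lipa and Npc1), against 11% of all genes under that setting and 5.87% with the knockout higher. With normexp background correction 1 of the 9 passed (Lrp1), against 2.98% of all genes and 2.09% with the knockout higher.

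**Figure D1:**
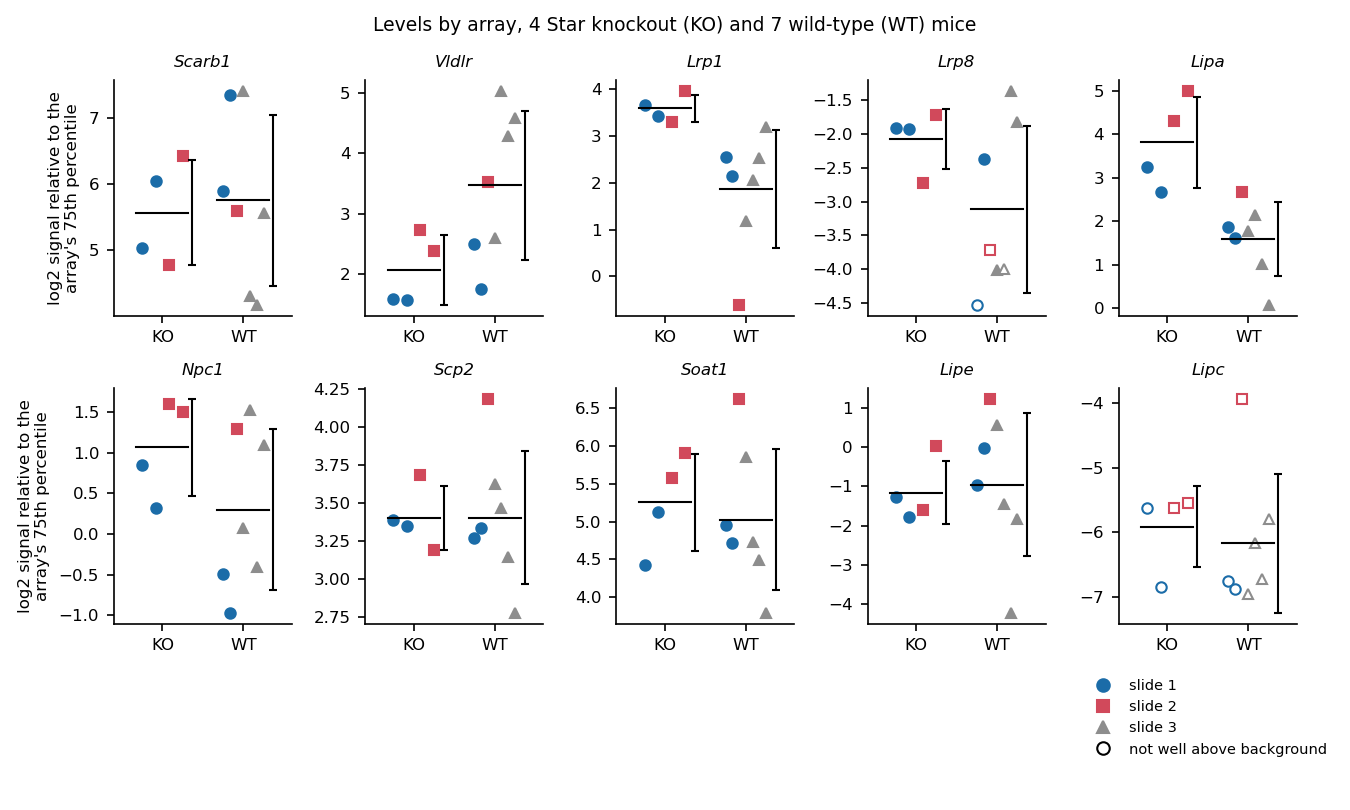
Levels of the 10 genes by array, on a log2 scale relative to the array's 75th percentile, with knockout arrays (KO, n = 4) left of wild-type arrays (WT, n = 7) in each panel. Lines are means, bars SDs, symbols slides and open symbols signals not well above background. Lrp1 alone of the 9 genes tested has every knockout array above every wild-type array, and Lipc is open on all 11 arrays.

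Scarb1 encodes SR-BI, the receptor for selective uptake from high-density lipoprotein. Its level was 5.03, 6.05, 4.77 and 6.43 in knockout arrays 1 to 4, against 5.90 and 7.35 in wild-type arrays 1 and 2 and 5.59 in wild-type array 3. The wild-type arrays of slide 3 held both the highest level, 7.42 in array 4, and the lowest, 4.17 in array 6, so the knockout values lay inside the wild-type range. The fitted difference was −0.65 ± 0.83 (SE, adjusted p = 0.707, limma), and its 95% interval ran from −2.51 to 1.22, or from 0.175-fold to 2.32-fold. The difference was −1.08 on slide 1 and 0.01 on slide 2. No loss or gain of Scarb1 transcript was detectable with these arrays, and a change of 2-fold in either direction lies inside the interval.

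Vldlr encodes the very low-density lipoprotein receptor, which binds apolipoprotein E and, in the brain, reelin. It stood at 1.58, 1.57, 2.72 and 2.38 in knockout arrays 1 to 4, against 2.49, 1.75 and 3.53 in wild-type arrays 1 to 3. On slide 3 the wild-type levels were 2.59, 5.04, 4.29 and 4.59 in arrays 4 to 7. The knockout mean of 2.06 ± 0.58 (SD, n = 4) was below the wild-type mean of 3.47 ± 1.23 (SD, n = 7), but the highest wild-type levels, those of arrays 5 to 7, lay on slide 3, which holds no knockout array. With slide in the fit the difference was −0.72 ± 0.55 (SE, adjusted p = 0.509, limma), −0.54 on slide 1 alone and −0.98 on slide 2 alone.

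Lrp1 encodes a large endocytic receptor for apolipoprotein E remnants and for protease complexes, found on macrophages, hepatocytes and fibroblasts among others. Its level was 3.66, 3.42, 3.29 and 3.96 in knockout arrays 1 to 4, against 2.55, 2.15 and −0.61 in wild-type arrays 1 to 3. Wild-type arrays 4 to 7 stood at 1.19, 2.06, 2.53 and 3.19. The knockout values were close together, with an SD of 0.30, and all lay above the highest wild-type array. Lrp1 was the 1 gene of the 9 with such a gap, which was found for 7.32% of all genes tested, 4.1% with the knockout higher and 3.22% with it lower. On slides 1 and 2 alone it was again 1 of 9, against 20.4% of all genes. The fitted difference was 2.41 ± 0.67 (SE, adjusted p = 0.123, limma), or 5.3-fold with a 95% interval of 1.88 to 14.9. Slide 1 alone gave 1.19 and slide 2 alone gave 4.23, with the 1 wild-type array there the lowest of all 11. Without wild-type array 3 the difference was 1.19, with an adjusted p of 0.878 in limma, and with sex as a term it was 1.65. Over all alternatives its adjusted p ran from 0.0279 to 0.878.

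Lrp8 encodes the apolipoprotein E receptor 2, which binds reelin and selenoprotein P. Its brightest probe was well above background on 4 of 4 knockout arrays and 4 of 7 wild-type arrays, of which 1 lay on slides 1 and 2. Levels were −1.91, −1.93, −2.73 and −1.72 in knockout arrays 1 to 4, against −4.53, −2.37 and −3.72 in wild-type arrays 1 to 3. All 4 knockout values lay between the lowest wild-type value and the highest, −1.36 in array 6, and the fitted difference was 1.52 ± 0.78 (SE, adjusted p = 0.332, limma). The other 2 probes of Lrp8 were well above background on 3 and 2 arrays and were not tested. Without wild-type array 1 the difference was 0.97, and with normexp background correction 0.21.

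**Figure D2:**
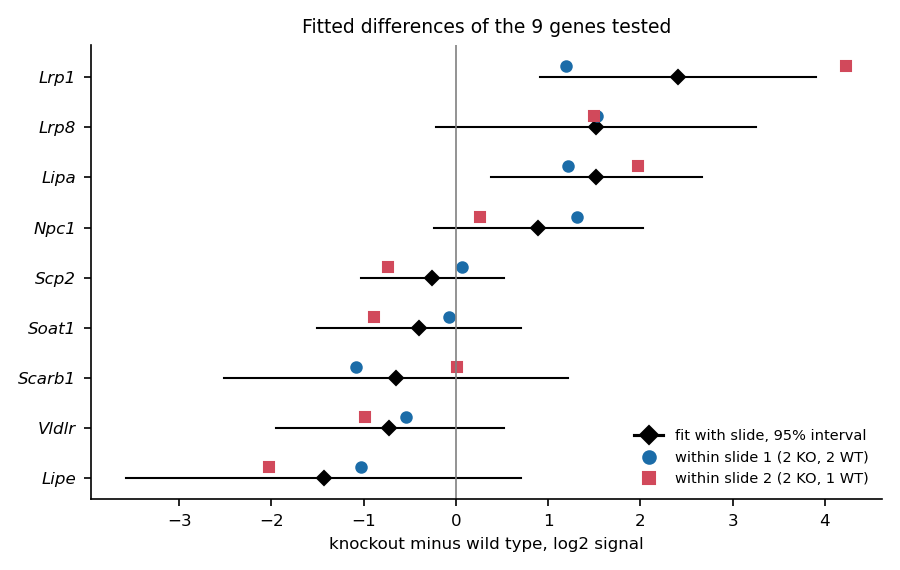
Fitted differences of the 9 genes tested, knockout minus wild type on the log2 scale, as diamonds with 95% intervals, and the differences within slide 1 (circles) and within slide 2 (squares). The intervals of Lrp1 (0.91 to 3.90) and Lipa (0.38 to 2.67) are unadjusted and lie above 0, while the other 7 include 0.

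Lipa encodes lysosomal acid lipase, which hydrolyses the cholesteryl esters and triglycerides of endocytosed lipoproteins. It stood at 3.26, 2.68, 4.31 and 5.00 in knockout arrays 1 to 4, against 1.87, 1.62 and 2.68 in wild-type arrays 1 to 3. Slide 3 gave wild-type levels of 1.77, 2.14, 1.01 and 0.08 in arrays 4 to 7. The knockout arrays of each slide were above the wild-type arrays of the same slide, and over all slides the lowest knockout array and the highest wild-type array met at 2.68. The fitted difference was 1.52 ± 0.51 (SE, adjusted p = 0.176, limma), or 2.88-fold with a 95% interval of 1.3 to 6.36. Slide 1 gave 1.22 and slide 2 gave 1.97, and leaving out wild-type array 3 gave 1.22.

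The regulatory sequence of Lrp1 and Lipa is shown because they had the smallest p among the genes. Each line gives the 250 bases before the annotated start, from RefSeq on GRCm38.p6, 5′ to 3′ on the gene's strand, at chr10:127621149-127621398 (minus strand) for Lrp1 and chr19:34527475-34527724 (minus strand) for Lipa, with motif matches in capitals. 
Lrp1: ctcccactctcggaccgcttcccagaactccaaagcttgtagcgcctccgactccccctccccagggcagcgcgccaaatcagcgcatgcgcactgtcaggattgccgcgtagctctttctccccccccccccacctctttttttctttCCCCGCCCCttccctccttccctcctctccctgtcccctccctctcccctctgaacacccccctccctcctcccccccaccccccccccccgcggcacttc
Lipa: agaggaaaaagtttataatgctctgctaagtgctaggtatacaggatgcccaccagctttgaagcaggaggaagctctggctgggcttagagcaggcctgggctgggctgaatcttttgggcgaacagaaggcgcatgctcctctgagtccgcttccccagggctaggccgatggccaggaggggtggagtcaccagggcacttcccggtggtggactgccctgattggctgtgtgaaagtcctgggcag
The motifs searched on both strands were CAAGGTCA (SF-1), CACGTG (E-box), TCACGTGA (the lysosomal gene element, which contains the E-box), TCACCCCAC (sterol response element), TGACGTCA (cyclic AMP response element) and GGGGCGGGG (GC box). The Lrp1 window held 1 match, the GC box from position −101, on the opposite strand, and the Lipa window held none. Over 32851 windows of the same length, 10.4% held the GC box, 1.33% the SF-1 letters and 0.785% the lysosomal element, so the single match is a common one. Windows were at hand for 8 of the 10 genes.

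Npc1 encodes the membrane protein through which cholesterol leaves the lysosome. Its level was 0.85, 0.32, 1.60 and 1.50 in knockout arrays 1 to 4, against −0.49, −0.97 and 1.29 in wild-type arrays 1 to 3. Slide 3 spread from −0.41 in wild-type array 6 to 1.52 in wild-type array 5, so the genotypes overlapped. The difference was 0.89 ± 0.51 (SE, adjusted p = 0.377, limma), with a 95% interval of −0.24 to 2.03, and the slides gave 1.31 (slide 1) and 0.26 (slide 2).

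Scp2, for sterol carrier protein 2 and a peroxisomal thiolase made from the same gene, was the steadiest of the genes. Knockout arrays 1 to 4 had levels of 3.39, 3.35, 3.69 and 3.19, against 3.27, 3.34 and 4.19 in wild-type arrays 1 to 3. Means over all slides were 3.41 ± 0.21 in knockout (SD, n = 4) and 3.40 ± 0.44 in wild-type arrays (SD, n = 7). The fitted difference was −0.26 ± 0.35 (SE, adjusted p = 0.72, limma), and its 95% interval of −1.03 to 0.52 was the narrowest of the 9, corresponding to 0.49-fold to 1.43-fold. Slide 1 gave 0.07 and slide 2 gave −0.74, and with sex as a term it was 0.02. With that term and without the array whose sex label and Y-linked level disagree, it was −0.0034. The sign of this small difference was therefore not stable.

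Soat1 encodes the sterol O-acyltransferase of the endoplasmic reticulum that forms cholesteryl esters in the adrenal. Its bright probe stood at 4.42, 5.13, 5.57 and 5.91 in knockout arrays 1 to 4, against 4.96, 4.71 and 6.63 in wild-type arrays 1 to 3. The wild-type arrays of slide 3 gave 5.86, 4.73, 4.49 and 3.79, and the genotypes overlapped widely. The fitted difference was −0.40 ± 0.49 (SE, adjusted p = 0.696, limma), with a 95% interval of −1.50 to 0.71. It was −0.07 on slide 1, and so without wild-type array 3, and −0.89 on slide 2. With sex as a term it was 0.04. With that term and without the array whose sex label and Y-linked level disagree, it was −0.07.

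The other 2 probes of Soat1 were dimmer and behaved differently across arrays. Both were well above background on the 4 knockout arrays and on wild-type arrays 1 to 4, and on none of wild-type arrays 5 to 7, where the bright probe remained at 3.79 to 4.73. On wild-type array 3 the probes also parted: A_52_P642167 stood at 2.01 there and at −2.69 to −0.96 on wild-type arrays 1, 2 and 4, while A_52_P651833 stood at −1.87. Fitted as rows of their own, they differed by −1.34 ± 1.28 and −0.26 ± 1.18 (SE, adjusted p = 0.614 and 0.933, limma).

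Lipe encodes hormone-sensitive lipase, the neutral cholesteryl ester hydrolase of steroid-forming cells. The brighter of its 2 probes stood at −1.28, −1.77, −1.59 and 0.02 in knockout arrays 1 to 4, against −0.97, −0.01 and 1.24 in wild-type arrays 1 to 3. On each of slides 1 and 2 the knockout arrays were below the wild-type arrays, but wild-type array 6 on slide 3 was the lowest of all at −4.22. The fitted difference was −1.43 ± 0.96 (SE, adjusted p = 0.445, limma), −1.03 within slide 1 and −2.03 within slide 2. The dimmer probe was above background on 7 arrays and differed by −0.13 ± 0.80 (SE, adjusted p = 0.953, limma).

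Lipc encodes hepatic lipase, which liver cells secrete and which is also found bound to vessels of the adrenal. Its probe was not well above background on any of the 11 arrays, with measured levels of −6.85 to −5.55 in knockout arrays and −6.95 to −3.93 in wild-type arrays, so no fold is given and it was not tested. Liver transcripts were present on several of the same arrays: Alb, for albumin, ran from −1.53 to 6.97 in knockout arrays and from −2.94 to 6.95 in wild-type arrays.

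**Figure D3:**
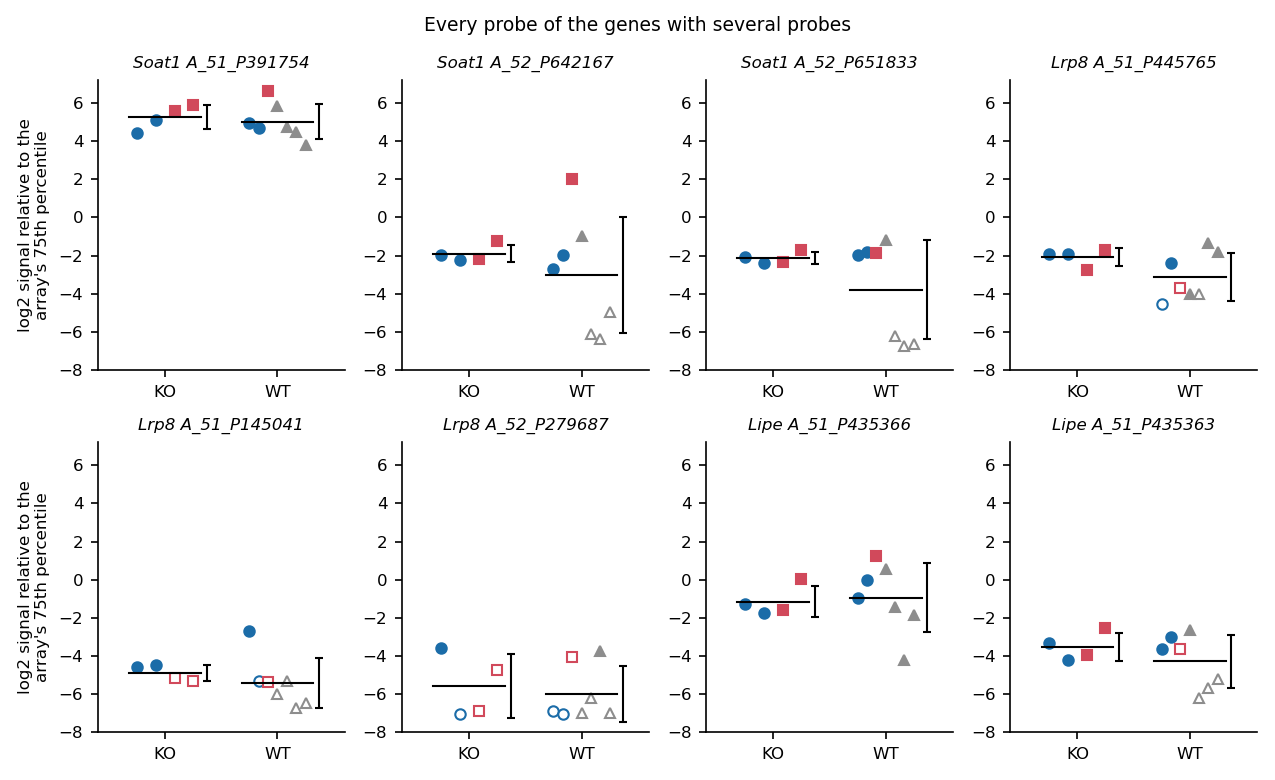
All 8 probes of Soat1, Lrp8 and Lipe by array, as log2 signal relative to the array's 75th percentile, with knockout (KO, n = 4) left of wild type (WT, n = 7). Lines are means, bars SDs, symbols slides as in the plot of levels, and open symbols signals not well above background. The 2 dim Soat1 probes fall to background on wild-type arrays 5 to 7 of slide 3, where the bright probe stays high.

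Other genes of these pathways gave the setting. Among 14 tested receptors and binding proteins, 0 passed, with a median difference of 1.00 (0.47 without wild-type array 3). Of these 14, 6 had an unadjusted p under 0.05, against 18.4% of all genes tested. Scarb2, a lysosomal membrane relative of Scarb1, stood at 2.71 to 3.28 in knockout and −2.01 to 1.48 in wild-type arrays, a difference of 3.35 ± 0.66 (SE, adjusted p = 0.0565, limma), which was 2.09 on slide 1 and 5.24 on slide 2. Stab2, a scavenger receptor of sinusoidal endothelium, differed by 2.26 ± 0.60 (SE, adjusted p = 0.111, limma), with 1.33 on slide 1 and 3.66 on slide 2.

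Of 23 tested ligands, adaptors and regulators of these receptors, 1 rose and 0 fell, with a median difference of 0.45 and 7 at an unadjusted p under 0.05. The one was Pltp, which transfers phospholipids between lipoproteins, at 0.15 to 1.03 in knockout and −5.03 to −2.92 in wild-type arrays, a rise of 4.30 ± 0.43 (SE, adjusted p = 0.00354, limma). Pltp was well above background on 5 of 7 wild-type arrays and not on wild-type array 3, so the 4.95 of slide 2 is measured against a background signal. Slide 1 gave 3.87, and without array 3 the adjusted p was 0.0565 in limma (0.000171 to 0.104 over all alternatives). With normexp background correction the rise was 2.34. Clu, for the secreted chaperone clusterin, differed by −2.62 ± 0.55 (SE, adjusted p = 0.0679, limma), and Lpl, for lipoprotein lipase, by 2.86 ± 0.64 (SE, adjusted p = 0.0776, limma), 1.73 on slide 1 and 4.55 on slide 2. Of 28 tested genes of lysosomal and non-vesicular sterol transport, 1 rose and 0 fell, with a median of 0.45 and 11 at an unadjusted p under 0.05. The gene that rose was Npc2, the soluble lysosomal partner of Npc1, at 4.38 to 5.05 in knockout and 2.13 to 3.49 in wild-type arrays. Its rise was 1.98 ± 0.36 (SE, adjusted p = 0.0451, limma). The call for Npc2 was lost in 17 of 28 alternatives, among them the one without wild-type array 3 (1.57, adjusted p = 0.379, limma) and the one with sex as a term (1.93, adjusted p = 0.157), and its adjusted p ran from 0.00379 to 0.379.

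In that list the lysosomal membrane protein gene Lamp1 differed by 1.51 ± 0.36 (SE, adjusted p = 0.0878, limma), and the endosomal sterol carrier gene Stard3 by 1.21 ± 0.29 (SE, adjusted p = 0.0938, limma). Among 24 tested genes of a list on ester synthesis and hydrolysis, 0 passed, and the median was −0.39 (−0.21 without wild-type array 3). In that list 9 had an unadjusted p under 0.05, against 18.4% of all genes tested. The list also held genes of thiolases, protein kinase A, acyl-CoA synthetases and lipid droplet proteins, which neither form nor split cholesteryl esters. Such genes made up most of the 9. Its count and median are therefore not those of ester enzymes alone. The lysosomal phospholipase gene Pla2g15 differed by 3.35 ± 0.77 (SE, adjusted p = 0.0828, limma), the thiolase gene Acat2 by −1.59 ± 0.40 (SE, adjusted p = 0.0978, limma) and the monoglyceride lipase gene Mgll by 1.56 ± 0.41 (SE, adjusted p = 0.11, limma). Their differences on slide 1 were 2.27, −0.97 and 0.99, and on slide 2 they were 4.96, −2.53 and 2.41. Each of the counts past the threshold stands beside the 0.602% of all genes tested that passed as higher and the 0.227% that passed as lower in knockout arrays. The counts at an unadjusted p under 0.05 stand beside 18.4% of all genes tested.

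**Figure D4:**
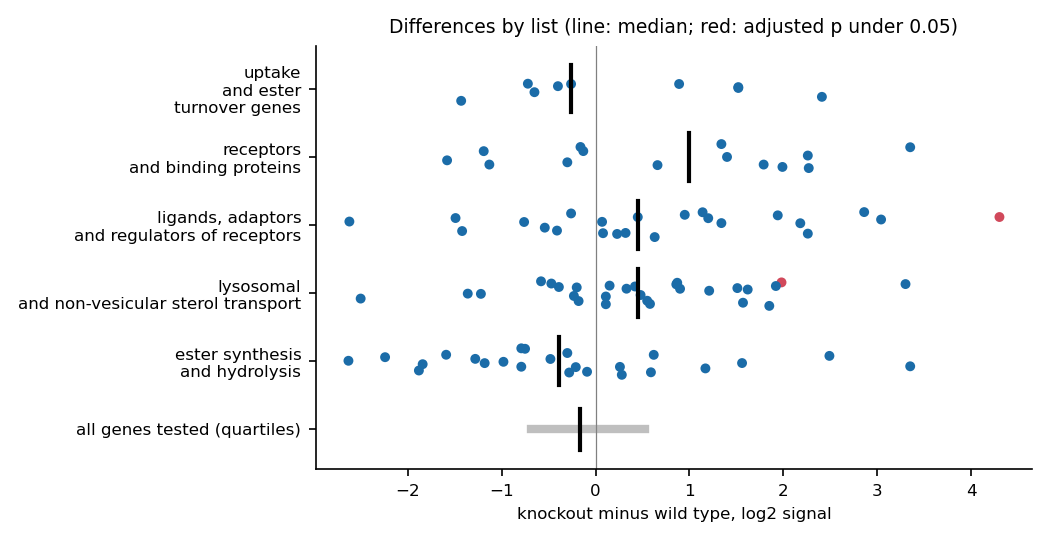
Fitted differences, knockout minus wild type on the log2 scale, for the 9 genes tested and for 4 lists of other pathway genes. Each point is a gene, black lines are medians, red points have an adjusted p under 0.05 (Pltp and Npc2), and the grey bar spans the quartiles of all genes tested, −0.69 to 0.53.

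Markers of other cell types moved between the same arrays. Of 24 macrophage markers, 23 were measured, and their mean level was 4.00 to 4.61 in knockout arrays and −0.52 to 2.22 in wild-type arrays. Their summed signal was 10.48 to 11.22 and 6.08 to 8.88 on the log2 scale. After outlier spots were removed, knockout array 3 had no value for C1qc and knockout array 4 none for Lyz2. The means and sums of those arrays leave these genes out. All 23 markers were well above background on each knockout array and 18 to 22 on each wild-type array. In limma, 22 of the 23 were fitted higher in knockout arrays, and the median over the 23 was 3.05 (1.88 without wild-type array 3), beside −0.16 over all genes tested. The exception was Cd163, at −4.06 ± 1.44 (SE, adjusted p = 0.193, limma), with −6.56 on slide 1 and −0.32 on slide 2. At the threshold 5 rose and 0 fell, against 0.602% of all genes tested that passed as higher and 0.227% as lower. The list was chosen with earlier results of these data known. Among those 5 were Gpnmb, by 7.93 ± 0.79 (SE, adjusted p = 0.00354), and Trem2, by 3.92 ± 0.51 (SE, adjusted p = 0.0134). Gpnmb was well above background on 2 of 7 wild-type arrays, both on slide 1, so its fitted change rests in part on background signals, and as the mean of its probes it was 4.38. Without wild-type array 3 Gpnmb was at 6.71 (adjusted p = 0.0565, limma; 1.77e-05 to 0.0887 over all alternatives) and Trem2 at 3.11 (adjusted p = 0.128, limma; 0.000145 to 0.132). The defining receptor gene Csf1r differed by 2.69 ± 0.59 (SE, adjusted p = 0.0731), with 1.75 on slide 1 and 4.09 on slide 2, and was above background on all 11 arrays. Macrophages are known to express several of the genes described here, and the part of macrophage RNA in the values of any of them was not tested. In sorted cells measured in bulk, a change in the number of cells of a type cannot be told apart from a change in RNA per cell.

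The labelled cell type was present on every array. The 8 steroidogenic markers measured had mean levels of 1.87 to 3.42 in knockout arrays and 1.32 to 4.92 in wild-type arrays, 7 or 8 of them above background on each array, and Cyp11a1, for the side-chain cleavage enzyme, stood at 2.82 to 4.70 in knockout and 1.62 to 6.18 in wild-type arrays. All 8 markers were fitted lower in knockout arrays, with a median difference of −1.37, beside −0.16 over all genes tested. In limma 0 passed, against 0.829% of all genes tested. Of the 8, 1 had an unadjusted p under 0.05, against 18.4% of all genes tested. On slide 1 their mean level was 2.89 and 3.42 in knockout arrays against 4.30 and 4.88 in wild-type arrays. On slide 2 it was 1.87 in knockout array 3 against 3.52 in wild-type array 3. Knockout array 4, at 2.39, had no value for Fdx1 after outlier spots were removed. Fdx1 stood at 6.21 on knockout array 3 and 9.50 on wild-type array 3, so the mean of knockout array 4 is not set against the others. Within slide 2, Cyp11a1 (1.27) and Nr5a1 (0.11) were higher in knockout arrays and the other markers lower. The part of these differences in the values of the 9 genes was not tested. Among wild-type arrays, steroidogenic levels were lowest on arrays 5, 6 and 7, at 1.32, 1.56 and 2.07, and their chromaffin marker means were the highest, at 3.81, 4.17 and 3.61, against −1.71 to 0.42 in knockout and 0.50 to 2.75 in the remaining wild-type arrays. The same 3 arrays had the highest Vldlr levels, and 2 of them, arrays 5 and 6, the lowest Scarb1 levels of all 11. Capsule stroma marker means were also highest on wild-type arrays 5, 6 and 7, at 5.59, 4.72 and 5.15, against 3.48 to 4.64 in knockout arrays. Hepatocyte marker means were highest on wild-type arrays 5 and 7, at 5.56 and 5.46, and lowest on wild-type array 6, at −3.59. Endothelial summed signal was highest on wild-type arrays 5, 6 and 7, at 7.51, 8.24 and 7.04. Their endothelial marker means, 1.00, 1.99 and 0.57, were not all the highest. Kidney marker means were highest on wild-type array 4, at −1.43, and knockout array 4, at −1.90. Whether medullary, capsular, liver, endothelial or kidney RNA had a part in the spread of Vldlr, Scarb1 and the dim Soat1 probes over wild-type arrays was not tested.

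**Figure D5:**
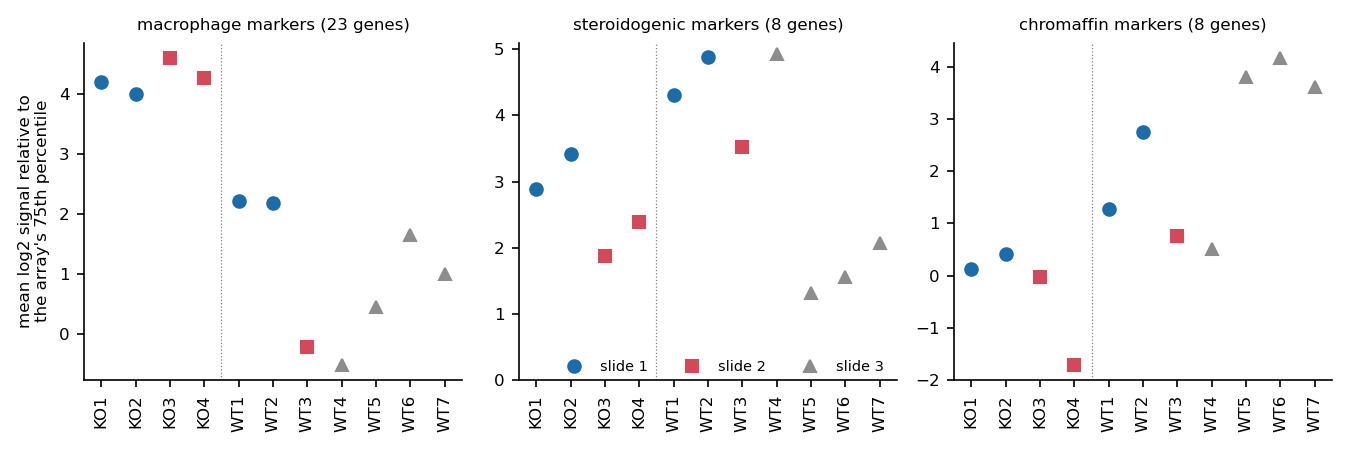
Mean log2 level of macrophage, steroidogenic and chromaffin markers on each array, with the 4 knockout arrays (KO) left of the 7 wild-type arrays (WT) and symbols for slides. Macrophage markers stand at 4.00 to 4.61 on knockout arrays, above all wild-type arrays, and chromaffin markers are highest on wild-type arrays 5 to 7. Means leave out markers without a value, C1qc on knockout array 3 and Lyz2 and Fdx1 on knockout array 4.

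The genes whose pattern over the 11 arrays was most like the 3 with the smallest p were found by the root mean square difference of levels after each gene's own mean was subtracted, over 13386 named genes. For Lrp1 these were Trim47, Calhm2 and Mtmr10, at 0.36, 0.39 and 0.42, against a median of 1.53 over all genes. For Lipa they were C5ar2, Arhgap4 and Ssh3, at 0.48, 0.54 and 0.55 (median 1.56), and for Lrp8 they were Gfra1, Jak2 and Zfyve28, at 0.51, 0.61 and 0.61 (median 1.37). Among the 9 genes themselves, Scp2 and Soat1 had the smallest such difference, at 0.55, and Lrp1 and Lipe the largest, at 2.31. Levels were not scaled to each gene's spread, so genes that vary little come out close whatever their pattern. These pair values are therefore not read as shared patterns. The nearest genes lie below the median because they were picked as nearest.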

How the data were processed

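Agilent Feature Extraction made the deposited spot intensity, and its processed signal is background-subtracted, with version 10.1.1.1 on slides 1 and 2 and 10.5.1.1 on slide 3, per the file headers, which also gave the slide of each array. The authors' deposited log2 table equalled the scanner signals less each array's 75th percentile and less the probe's median, to 0.01 for 99.8% of probes (column medians −0.166 to 0.901). The deposited background and outlier marks used are flags of 0 or 1. Median spot and background signals, used in the normexp alternative alone, are intensities.

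After 77 to 164 outlier spots per array were removed, log2 processed signals were averaged per probe, and the 75th percentile over 41174 probes was taken off. A RefSeq table (GRCm38.p6) named 24375 probes by accession and left 16799 unnamed. The probe of highest mean stood for its gene, which was tested if well above background on at least 4 of 11 arrays. The test was limma 3.58.1 (R 4.3.3, lmFit and eBayes), two-sided, with terms for genotype and slide and 7 residual degrees of freedom. P-values were adjusted by Benjamini-Hochberg over 21107 genes and unnamed probes, at a threshold of 0.05. The script was tested on simulated data. Alternatives changed the slide term, sex, replicate block, background correction, scaling, filter, probe choice, array weights and the arrays included. The normexp alternative, planned on mean spot signals, used the median spot signals the files hold, with an offset of 50. Software also included statmod 1.5.0, version 1.17.8 of data.table, Python 3.11.15, pandas 2.3.3, numpy 2.4.6 and matplotlib 3.10.9.

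The genes and lists were chosen with earlier results of these data known. Named are the 10 genes, Star, the genes of each pathway list past the threshold (filled to 3 by smallest p), the leading markers and the 3 most alike genes. Alb and Ddx3y serve as checks, and Cd163, C1qc, Lyz2 and Fdx1 are named where a marker count or mean needs them. A result that this rule names is not reported here. Each array came from a different mouse, per the labels' protocols.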

Additional observations from a re-analysis of the deposited data

How the results depend on the processing

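Over 29 alternatives, the number of the 9 genes past the threshold was 0 in all but 2: it was 1 with normexp background correction (Lrp1, 2.16, adjusted p = 0.0279, limma) and 3 with array weights (Lrp1 at 1.44, Lipa at 1.43 and Npc1 at 1.43). The adjusted p of Lrp1 ran from 0.0279 to 0.878 and that of Lipa from 0.0304 to 0.901. Vldlr, Lrp1, Lrp8, Lipa, Npc1 and Lipe kept their direction throughout. Star passed in 10 of 28 alternatives, with adjusted p from 0.00165 to 0.515 in limma. Scarb1 turned to 0.01 within slide 2. Soat1 turned to 0.23 without the slide term and to 0.04 with sex as a term. Without the array whose sex label and Y-linked level disagree, the fit with sex gave −0.07 for Soat1 and −0.0034 for Scp2. Scp2 turned to 0.0027 without the slide term, 0.07 within slide 1 and without wild-type array 3, 0.02 with sex and 0.03 with array weights, and ran from −0.35 to 0.07 with 1 array left out. The causes were not tested.

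The number of all genes past the threshold, 175, was 604 without the slide term, 474 with slide as a random block, 0 within slide 1 and 0 within slide 2 (limma; 3929 and 7622 at an unadjusted p under 0.05), 27 with sex, 78 with sex and wild-type array 4 left out, 628 with normexp, 93 with median scaling, 402 among genes detected on all 11 arrays and 2328 with array weights. The share called higher, 72.6%, was 56% among genes detected on all 11 arrays, 53.3% with array weights and 88.9% with sex, and with 1 array left out it ran from 62.4% to 95.8%. Leaving out 1 array in turn gave 10 to 561 genes and 0 of the 9, with the extremes without wild-type arrays 3 and 4. With the replicate number as a block beside slide, over arrays 1 to 4 of each genotype, 0 genes passed (limma; 3209 at an unadjusted p under 0.05). Same-numbered arrays deviated from their group means with correlations of −0.006 to 0.217. Slide was not removed and differently numbered arrays were not correlated, so these values cannot show whether the numbers mark pairs. The labels do not say that they do, and the numbers were not taken as pairs. Signal over background limits Lrp8 and Lipc.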
